A study of Bubalus bubalis with 12 samples.

Results

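The 10 genes described here, which make, bind, cross-link or break down hyaluronan, were followed in the corpus luteum (CL) of buffalo cows through the first 18 h of induced luteolysis. CD44 and TNFAIP6 were chosen from earlier results of the same arrays, by their measured rise post treatment, so their values are given as a description with no test. HAS1, HAS2, HAS3, HYAL1, HYAL2, VCAN, PTX3 and HAPLN1 were taken by name, though with earlier results of these data known. All 10 genes were on the array, by 20 probe sets in all, among 9155 genes and 24016 probe sets.

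The control group (0 h) was 4 untreated cows on day 11 of the estrous cycle. The 3 treated groups received 500 µg of cloprostenol, an analogue of prostaglandin F2α (PGF2α), by intramuscular injection on the same cycle day, and the CL was collected 3 h (2 cows), 6 h (3 cows) or 18 h (3 cows) post treatment. All cows had cycled normally beforehand, and each of the 12 arrays held whole CL of 1 animal hybridised to a bovine GeneChip. Values are log2 signals made by robust multichip average (RMA), so 1 unit is a 2-fold change. The probes were designed on cattle sequence, and levels are compared here only within a probe set. The 3 comparisons with 0 h share the same 4 controls. The p-values set a difference of group means against the spread between arrays of one group, each array counted as 1 animal.

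Hyaluronan is a long, unbranched sugar polymer that hyaluronan synthases (HAS1, HAS2 and HAS3) spin out of the cell membrane and that hyaluronidases (HYAL1, HYAL2) cut. Outside the cell it is organised by proteins that grip it: the proteoglycan versican (VCAN), the link protein HAPLN1, TNFAIP6 (also called TSG-6), which moves heavy chains of the inter-α-inhibitor onto hyaluronan, and the pentraxin PTX3, which holds these chains together. CD44 is its main receptor on the cell surface. In the ovary this matrix is best known from the cumulus cells around the ovulating oocyte, which expand by filling the space between them with it.

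The arrays of 1 group were not equally alike. Luteal cell markers (8 of 8 measured, among them STAR, CYP11A1 and HSD3B1) had an array mean of 12.28 to 14.05, so the tissue label held. Control replicates 1 and 4 differed more than 2-fold at 6 probe sets, while other pairs of one group did so at 220 to 1306. The labels count them as separate animals, and they were kept as such. If they share an RNA, the p-values against 0 h are too small. Control replicate 3 lay nearer the treated arrays for several members, and the pair at 3 h was the one with 1306. Genes were called at an adjusted p under 0.05 in limma, on the probe set of the gene with the highest mean. On these probe sets the arrays at 6 h and 0 h did not overlap, in either direction, in 2846 of 9155 genes. For 18 h against 0 h this held in 2887 genes, and for 18 h against 6 h in 2107.

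CD44 was low in 3 of 4 controls and high in every CL at 6 h and 18 h. In the controls its log2 level was 6.37, 7.27, 9.39 and 6.23 (replicates 1 to 4). At 3 h it was 8.39 and 8.10, at 6 h 10.49, 10.39 and 10.31, and at 18 h 11.59, 10.18 and 11.62. Every array at 6 h and 18 h lay above every control, the highest of which was replicate 3. In whole tissue, more cells of a type and more RNA per cell cannot be told apart.

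The order of the CD44 means was 0 h (7.31 ± 1.46, SD, n = 4), 3 h (8.24 ± 0.20, n = 2), 6 h (10.40 ± 0.09, n = 3) and 18 h (11.13 ± 0.82, n = 3). Neighbours 0 h and 3 h overlapped, as did 6 h and 18 h, whereas the 3 h and 6 h arrays did not. With 2 and 3 arrays such a gap says little, and its share over all genes was not counted. Against 0 h the log2 difference was 0.93 ± 0.72 (standard error of the fit) at 3 h, 3.08 ± 0.64 at 6 h (8.47-fold) and 3.82 ± 0.64 at 18 h (14.1-fold). These were places 104, 16 and 8 from the highest among the differences of the 9155 genes. CD44 was chosen for its rise on these same arrays, so the choice itself favours high places. Without control replicate 3 the same 3 differences were 1.62, 3.77 and 4.51. The difference at 3 h was 0.61 without control replicate 1, 0.57 without control replicate 4 and 0.59 with these averaged. From 6 h to 18 h CD44 differed by 0.74 ± 0.68, with a 95% interval of -0.75 to 2.23.

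TNFAIP6 was highest at 6 h and lower again at 18 h on both of its probe sets. On the brighter one, control levels were 8.83, 8.08, 9.27 and 8.85. At 3 h it read 8.59 in one CL and 10.67 in the other, at 6 h 10.04, 11.03 and 11.13, and at 18 h 9.02, 9.18 and 9.81. All 6 h arrays lay above all controls and above all 18 h arrays, while the 18 h arrays overlapped the controls.

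The TNFAIP6 means ran from 0 h (8.76 ± 0.50) through 18 h (9.34 ± 0.41) and 3 h (9.63 ± 1.47) to 6 h (10.73 ± 0.60). All neighbours in this order overlapped. The 6 h arrays were clear of 0 h and of 18 h. The log2 difference from 0 h was 0.88 ± 0.52 at 3 h, 1.97 ± 0.46 at 6 h (3.93-fold) and 0.58 ± 0.46 at 18 h, and 18 h against 6 h stood at -1.39 ± 0.49. On the dimmer probe set the values were 0.59 ± 0.41, 1.47 ± 0.36, 0.31 ± 0.36 and -1.16 ± 0.38 in the same order. The value at 3 h rests on 1 animal. It was 1.92 with 3 h replicate 3 alone and -0.16 with 3 h replicate 1 alone.

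**Figure D1:**
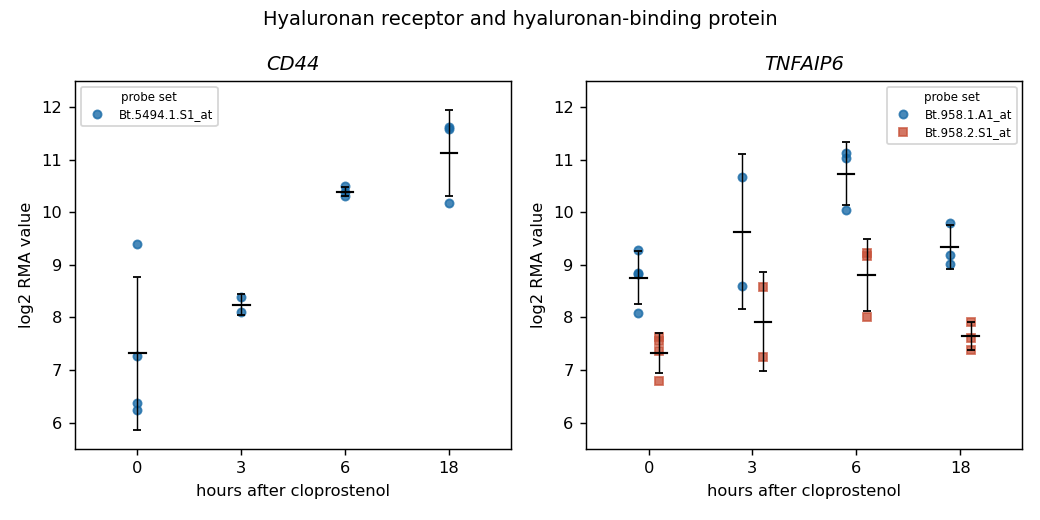
Log2 RMA values (vertical axis) of CD44 and TNFAIP6 against hours after cloprostenol (horizontal axis, not to scale). Each point is an array, colours and shapes are probe sets, and bars are the mean ± SD of 4, 2, 3 and 3 arrays. CD44 stood at 7.31 in controls and 11.13 at 18 h, and TNFAIP6 peaked at 6 h (10.73 on the brighter probe set).

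Across the 8 genes taken by name, 1 was called higher and 1 lower at 6 h (HYAL2 and HYAL1), where 6.55% of all genes were called higher and 7.66% lower. At 18 h 1 was called higher and 1 lower (HAS2 and HYAL1), where 7.55% and 8.35% of all genes were called. A count of 1 in 8 lies near these shares, so the genes are described singly. The count at 6 h was 5 without control replicate 3 (HAS2, VCAN and PTX3 added) and 1 without control replicate 1 or 4 or 6 h replicate 1 or 2. At 18 h none was called once 18 h replicate 1 was left out (count 0), and 1 (HYAL1) once control replicate 1, 2 or 4 or 18 h replicate 3 was. With control replicates 1 and 4 averaged as 1 animal it was 1 at each time, HYAL1. The shares of all genes called in these other fits are not given here. The counts thus show only how far the calls hang on single arrays.

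None of the 8 was called at 3 h in limma (1 at an unadjusted p under 0.05, HAS2), where 0.0109% of all genes were called higher and 0.0218% lower. None was called for 18 h against 6 h (2 at an unadjusted p under 0.05, HYAL2 and PTX3), where 0.371% were called higher and 0.273% lower. The median difference of the 8 genes was 0.22 at 3 h, 0.28 at 6 h and 0.16 at 18 h, beside -0.0087, -0.050 and -0.024 over all genes.

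Of the synthases, HAS2 was up regulated at 18 h on 2 of its 3 probe sets, and HAS1 and HAS3 were not called at any time. HAS2 makes the long hyaluronan chains of the cumulus matrix. Its brightest probe set read 8.20, 8.10, 8.72 and 8.08 in controls, 8.77 and 8.70 at 3 h, 8.45, 8.70 and 8.75 at 6 h, and 9.01, 8.65 and 8.93 at 18 h. Control replicate 3 was the one control inside the range of the treated arrays. The difference at 18 h was 0.59 ± 0.16 (adjusted p = 0.0334, n = 3 and 4), with 0.36 ± 0.16 at 6 h (adjusted p = 0.179) and 0.46 ± 0.18 at 3 h (adjusted p = 0.429). The call at 18 h held in 12 of 19 alternatives (adjusted p 0.00275 to 0.137). The losses included the fit with control replicates 1 and 4 averaged (0.0895) and those without control replicate 1, 2 or 4 or 18 h replicate 1 or 3 (0.0783 to 0.137). At 6 h HAS2 was called without control replicate 3 (0.51, adjusted p = 0.0188).

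The other 2 probe sets of HAS2 did not give the same size, and 1 of them had the other sign. The dimmest read 5.65, 5.99, 7.38 and 4.99 in controls. It read 5.63 and 7.05 at 3 h, 8.15, 7.82 and 6.77 at 6 h, and 7.38, 8.73 and 8.63 at 18 h. There the difference was 2.24 ± 0.57 at 18 h (4.72-fold, adjusted p = 0.0258) and 1.57 ± 0.57 at 6 h (adjusted p = 0.104). The third stayed between 8.25 and 8.66 on all 12 arrays and differed by -0.15 ± 0.09 at 18 h (adjusted p = 0.327). So 2 of 3 probe sets of HAS2 were called higher at 18 h, with unlike sizes, and the third was slightly lower and not called. Which of them follows the buffalo transcript was not tested.

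HAS1 lay between 6.06 and 6.69 on its brighter probe set over the 12 arrays, and HAS3 between 5.96 and 6.52. HAS1 differed from 0 h by 0.13 ± 0.14 at 6 h and 0.10 ± 0.14 at 18 h (95% interval -0.20 to 0.40), and HAS3 by 0.039 ± 0.15 and -0.0038 ± 0.15 (95% interval at 18 h -0.33 to 0.32). Their dimmer probe sets were not called either. HAS1 on that set was 0.32 ± 0.13 higher at 18 h (adjusted p = 0.126).

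**Figure D2:**
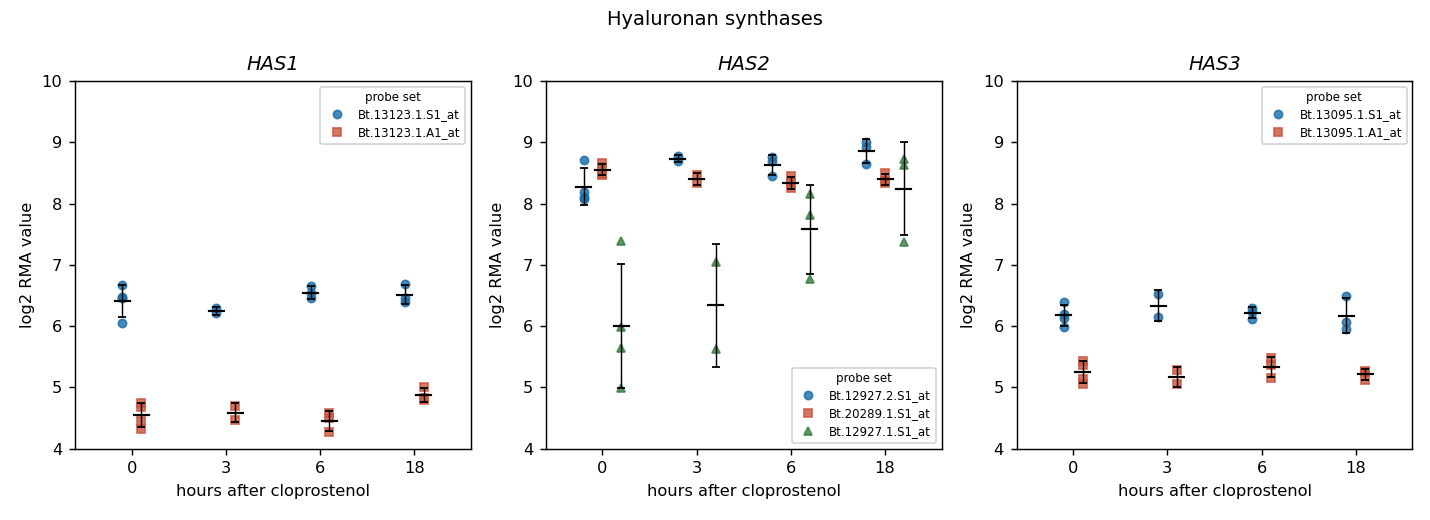
Log2 RMA values (vertical axis) of the 3 hyaluronan synthase genes against hours after cloprostenol (horizontal axis, not to scale). Each point is an array, colours and shapes are probe sets, bars are the mean ± SD. HAS2 rose on its brightest and its dimmest probe set, on the latter from 6.00 at 0 h to 8.24 at 18 h, while HAS1 and HAS3 kept to a narrow band.

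Versican, the large proteoglycan that binds hyaluronan through a Link domain, stood at the edge of the threshold at 18 h. Its brightest probe set read 9.13, 9.92, 10.89 and 9.19 in controls and 9.98 and 9.49 at 3 h. At 6 h it read 11.39, 10.40 and 11.10, and at 18 h 11.28, 10.60 and 11.56. Control replicate 3 overlapped the arrays at 6 h and 18 h and the other controls did not.

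The difference of VCAN was -0.046 ± 0.46 at 3 h, 1.18 ± 0.41 at 6 h (adjusted p = 0.0890) and 1.36 ± 0.41 at 18 h (adjusted p = 0.0510). On the other 2 probe sets it was 1.62 ± 0.47 (3.07-fold, adjusted p = 0.0451) and 1.44 ± 0.40 (2.70-fold, adjusted p = 0.0391) at 18 h, and 1.51 ± 0.47 and 1.27 ± 0.40 at 6 h (adjusted p = 0.0631 and 0.0663). VCAN was thus called at 18 h on 2 of 3 probe sets and at 6 h on none. Without control replicate 3 the brightest was called at both times (1.55 at 6 h, adjusted p = 0.00975, and 1.73 at 18 h, adjusted p = 0.00492). Without either 3 h array it was also called at 18 h (adjusted p = 0.0489). Over 19 alternatives its adjusted p at 18 h ran from 0.00492 to 0.167, and at 6 h from 0.00975 to 0.281.

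PTX3 had the lowest difference of all 9155 genes for 18 h against 6 h, but its arrays were too uneven for a call. The controls read 9.16, 9.12, 11.91 and 9.28, and the 3 h arrays 10.25 and 13.68. At 6 h they were 11.92, 12.51 and 11.66 and at 18 h 9.42, 7.25 and 9.90. All 18 h arrays lay below all 6 h arrays, and 3 of 4 controls did too, the exception being replicate 3.

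For 18 h against 6 h PTX3 stood at -3.17 ± 0.97 (9.01-fold lower in the means), with an adjusted p of 0.204 (0.0982 to 0.544 over 19 alternatives), so no change was called. Against 0 h it stood at 2.10 ± 1.02 at 3 h (adjusted p = 0.532), 2.16 ± 0.90 at 6 h (adjusted p = 0.157) and -1.01 ± 0.90 at 18 h (adjusted p = 0.549). Without control replicate 3 the value at 6 h was 2.84 and was called (adjusted p = 0.0392). At 18 h it became -0.33 when control replicate 3 was left out, -0.21 when 18 h replicate 2 was and -1.53 when 18 h replicate 3 was, and no call was made. At 3 h it was 3.82 with replicate 3 alone and 0.38 with replicate 1 alone. HAPLN1, on the array by 1 probe set whose mean lay at percentile 6.86 of all probe sets, read 3.56 to 4.34 and was not called (0.20 ± 0.16 at 6 h and 0.23 ± 0.16 at 18 h). RMA compresses differences at so low a signal.

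Both hyaluronidases changed by 6 h, in opposite directions. HYAL1, the lysosomal enzyme that cuts hyaluronan to small fragments, read 8.09, 8.36, 8.27 and 8.53 in controls and 8.03 and 8.13 at 3 h. It read 7.18, 7.83 and 7.60 at 6 h and 7.51, 7.66 and 7.70 at 18 h, below every control at both times. The difference was -0.24 ± 0.17 at 3 h (adjusted p = 0.693), -0.77 ± 0.15 at 6 h (1.71-fold lower, adjusted p = 0.00920) and -0.69 ± 0.15 at 18 h (1.62-fold lower, adjusted p = 0.0118). At 6 h it was called in 19 of 19 alternatives (adjusted p 0.00754 to 0.0332) and at 18 h in 18 of 19 (adjusted p 0.00484 to 0.0588), the exception being the fit without 18 h replicate 1.

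HYAL2, which is anchored in the membrane and makes the first cuts, was up regulated at 6 h. Its brightest probe set read 8.69, 8.95, 8.95 and 8.74 in controls, 8.79 and 9.44 at 3 h, 9.36, 9.73 and 9.31 at 6 h, and 9.01, 8.95 and 9.18 at 18 h. The 6 h arrays lay above all controls and all 18 h arrays. The difference was 0.63 ± 0.16 at 6 h (1.55-fold, adjusted p = 0.0271), 0.21 ± 0.16 at 18 h (adjusted p = 0.450) and -0.42 ± 0.17 for 18 h against 6 h (adjusted p = 0.364).

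The call of HYAL2 at 6 h held in 12 of 19 alternatives (adjusted p 0.00759 to 0.176). The losses included the fits without control replicate 1, control replicate 4, 6 h replicate 1 or 6 h replicate 2, where the adjusted p was 0.0786, 0.0759, 0.0604 and 0.121, and with control replicates 1 and 4 averaged (0.0762) or the probe sets of the gene averaged (0.176). Its other 3 probe sets were far dimmer, at 3.46 to 5.86, and none was called (0.17 ± 0.08, -0.16 ± 0.11 and 0.11 ± 0.09 at 6 h). On the buffalo assembly NDDB_SH_1 the genes HYAL2, HYAL1 and HYAL3 stand side by side. HYAL3, named after its values were seen, differed by -0.11 ± 0.11 at 6 h and 0.11 ± 0.11 at 18 h and was not called.

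**Figure D3:**
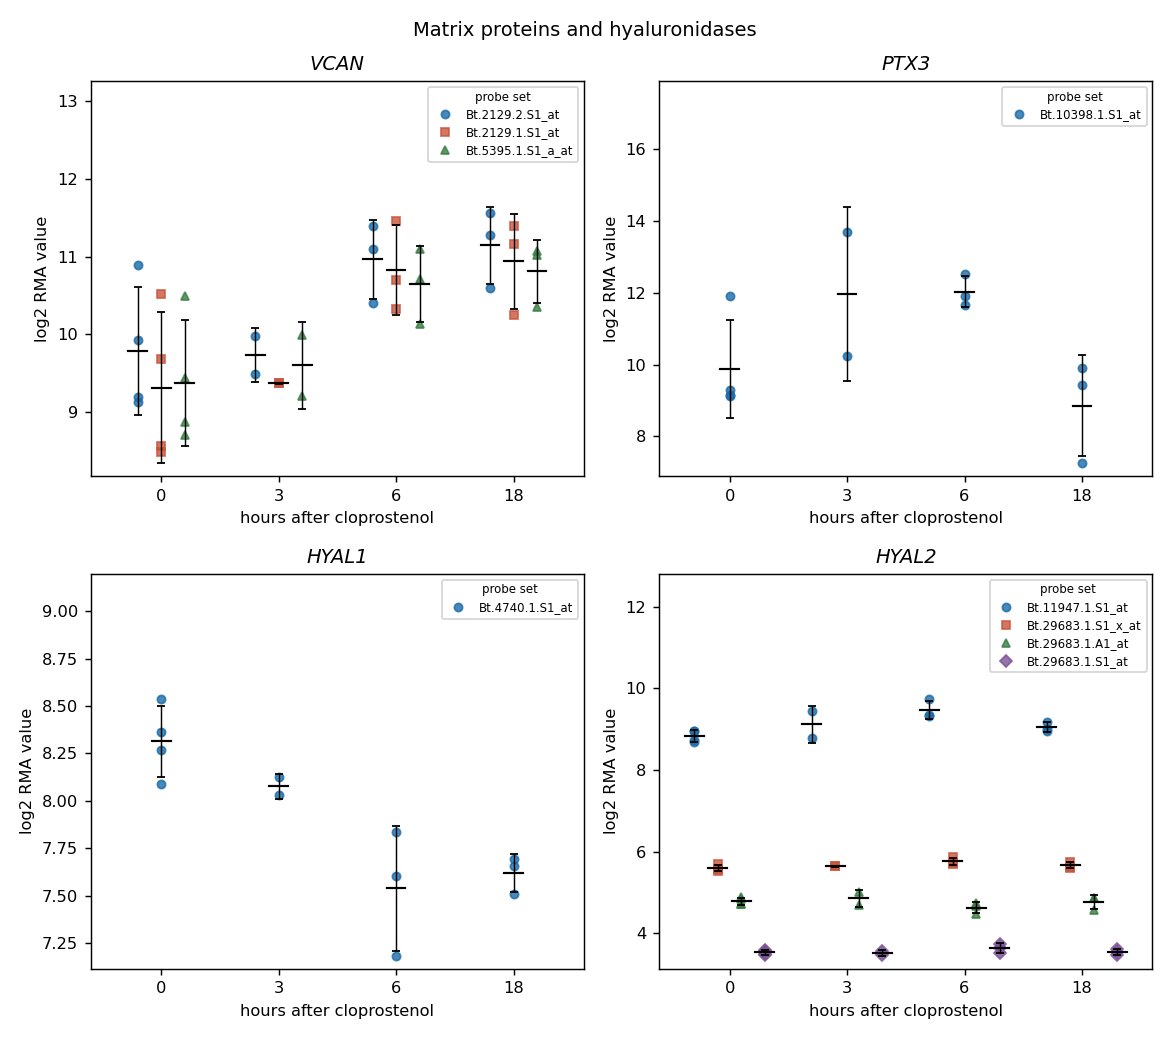
Log2 RMA values (vertical axis, scaled for each gene) of VCAN, PTX3, HYAL1 and HYAL2 against hours after cloprostenol (horizontal axis, not to scale). Each point is an array, colours and shapes are probe sets, bars are the mean ± SD. The means of PTX3 were 12.03 at 6 h and 8.86 at 18 h (not called), those of VCAN 10.96 and 11.14, and HYAL1 stood below all controls at 6 h and 18 h.

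The members differed in the time of their highest group mean. On the brightest probe set, CD44, HAS2 and VCAN had their highest group mean at 18 h, and their 6 h and 18 h arrays overlapped. TNFAIP6, PTX3 and HYAL2 had theirs at 6 h and stood lower at 18 h, with no overlap of the 6 h and 18 h arrays. Such separation, in either direction, occurred in 2107 of 9155 genes, so it is common with so few arrays. For HAS2 (0.23 ± 0.17), VCAN (0.18 ± 0.44), PTX3 and HYAL2 the step from 6 h to 18 h was not called. For CD44 and TNFAIP6 it was not tested. The third probe set of HAS2 had its highest group mean at 0 h (8.55). For PTX3 the mean at 3 h (11.97, from arrays at 10.25 and 13.68) was close to that at 6 h (12.03).

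The wider pathway was read from 73 further genes in 6 lists, of which 54 were on the array. These lists too were chosen with earlier results of these data known. At 6 h 7 of 54 were called higher and 3 lower, and at 18 h 9 were called higher and 4 lower, beside the 6.55% and 7.66%, and the 7.55% and 8.35%, of all genes. The median difference was 0.069 at 6 h and 0.13 at 18 h. None was called at 3 h or for 18 h against 6 h in limma (6 and 9 at an unadjusted p under 0.05). The count at 6 h was 5 without 6 h replicate 2. The count of 13 at 18 h became 7 when control replicate 1, control replicate 4 or 18 h replicate 1 was left out. The shares of all genes called in these fits are not given here.

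Precursor supply had 2 of 8 measured genes higher at 6 h (6.55% of all genes) and 1 higher and 1 lower at 18 h, near the 7.55% and 8.35% of all genes. UAP1, which forms the activated N-acetylglucosamine used for hyaluronan and for other sugar chains, read 10.31 to 11.01 in controls and 12.62, 12.81 and 12.58 at 6 h. That was a rise of 1.97 ± 0.38 (3.91-fold, adjusted p = 0.00876), called on all 3 of its probe sets. At 18 h UAP1 stood at 11.21, 11.32 and 11.61 on its brightest probe set (0.68 ± 0.38, adjusted p = 0.293). Of its 3 probe sets, 1 was called at 18 h against 0 h and 1 for 18 h against 6 h, in neither case the brightest. UGDH, which makes the other building block, UDP-glucuronic acid, rose by 0.68 ± 0.13 at 6 h (adjusted p = 0.00794) and 0.64 ± 0.13 at 18 h (adjusted p = 0.00801). GNPNAT1, an enzyme of the same hexosamine route as UAP1, fell by 0.54 ± 0.16 at 18 h (adjusted p = 0.0427).

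Breakdown genes other than the members (5 of 8 measured) had none called at 6 h or 18 h in limma. Of the receptors, 6 of 7 were measured and 1 was called higher at each time. Beside this and the next counts stand the shares of all genes called. These were 6.55% higher and 7.66% lower at 6 h, and 7.55% and 8.35% at 18 h. LYVE1, the lymphatic hyaluronan receptor, rose by 0.68 ± 0.14 at 6 h (adjusted p = 0.0133), and TLR4, an innate immune receptor that can sense hyaluronan fragments, by 1.22 ± 0.34 at 18 h (adjusted p = 0.0371). The matrix partners (18 of 22 measured) had 0 higher and 1 lower at 6 h, and 2 higher and 1 lower at 18 h. At 18 h DCN, the collagen-binding proteoglycan decorin, rose by 0.76 ± 0.19 (adjusted p = 0.0209). SRGN, serglycin, rose by 1.28 ± 0.38 (adjusted p = 0.0490) at 18 h. HABP4, an intracellular protein that carries hyaluronan binding in its name, fell by 1.28 ± 0.18 at 6 h (adjusted p = 0.00288) and 1.05 ± 0.18 at 18 h (adjusted p = 0.00431).

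The CD44 partners (13 of 20 measured) had 3 higher and 2 lower at 6 h, where 6.55% and 7.66% of all genes were called, and 4 higher and 2 lower at 18 h, where 7.55% and 8.35% were. SPP1, osteopontin, a secreted ligand of CD44 and of integrins, read 9.45, 10.51, 11.13 and 9.48 in controls, 12.21, 12.96 and 12.01 at 6 h, and 14.08, 12.85 and 13.04 at 18 h. It rose by 2.25 ± 0.46 at 6 h (4.76-fold, adjusted p = 0.0120) and 3.18 ± 0.46 at 18 h (9.09-fold, adjusted p = 0.00167).

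The linkers between CD44 and the actin cortex moved apart. MSN (moesin) rose at 6 h and 18 h, EZR (ezrin) fell by 0.75 ± 0.15 at 6 h (adjusted p = 0.0122) and 0.87 ± 0.15 at 18 h (adjusted p = 0.00451), and RDX (radixin) fell at 18 h. The matrix metalloproteinases MMP9 and MMP14 rose at 18 h, MMP9 by 0.68 ± 0.12 (adjusted p = 0.00456). HGF, a growth factor whose receptor works with CD44, was higher and LGALS9, galectin 9, lower at 6 h. The versican proteases (4 of 7 measured) had 1 called higher at each time, beside 6.55% of all genes at 6 h and 7.55% at 18 h. This was ADAMTS5, which rose by 0.90 ± 0.14 at 6 h (adjusted p = 0.00352) and 0.51 ± 0.14 at 18 h (adjusted p = 0.0346).

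**Figure D4:**
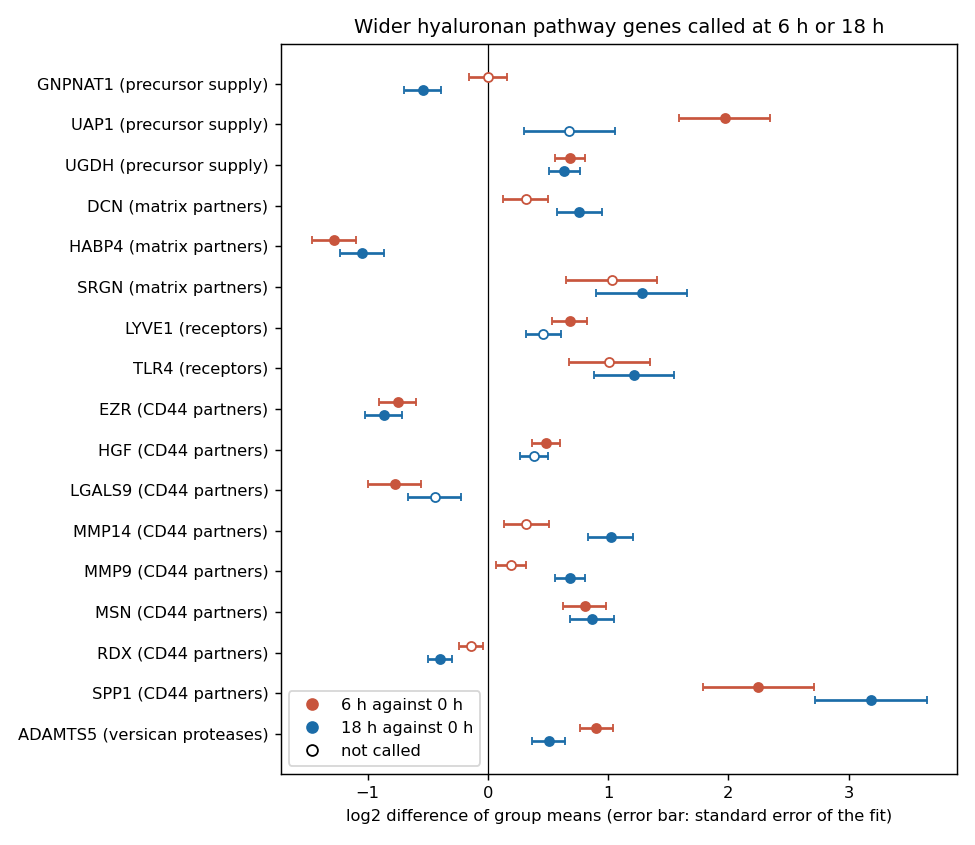
Log2 differences from 0 h at 6 h and at 18 h (horizontal axis, error bars are the standard error of the fit) for the genes of the wider hyaluronan pathway lists called at either time (vertical axis, list in brackets). Filled points were called at an adjusted p under 0.05 and open points were not. SPP1 had the highest called value at both times (2.25 and 3.18) and HABP4 the lowest (-1.28 and -1.05).

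The genes of most similar pattern were found by the root mean square difference over the 12 arrays after each gene was centred on its own mean. For CD44, whose own spread by that measure was 1.81, they were PDGFRA (0.65), IL1RN (0.65), SPP1 (0.68), LCP1 (0.72) and PARM1 (0.75), against a median of 1.83 over all genes. In each of these 5, as in CD44, control replicate 3 was the highest control. The genes were picked on these same 12 arrays, so the choice itself favours such a shared feature. For TNFAIP6 (own spread 0.95) they were UAP1 (0.29), TRPC4 (0.35), LRRC8C (0.35), ATP2A2 (0.38) and CTR9 (0.42), against a median of 0.996. All 5 were high at 3 h replicate 3 and not at 3 h replicate 1, as TNFAIP6 was, which the choice favours in the same way. The members that were called had small ranges, and the nearest genes were PISD (0.13) and GRB10 (0.15) for HAS2, DCAF12 and POLE2 (both 0.17) for HYAL1, and TMEM185B (0.081) and NIFK (0.097) for HYAL2.

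**Figure D5:**
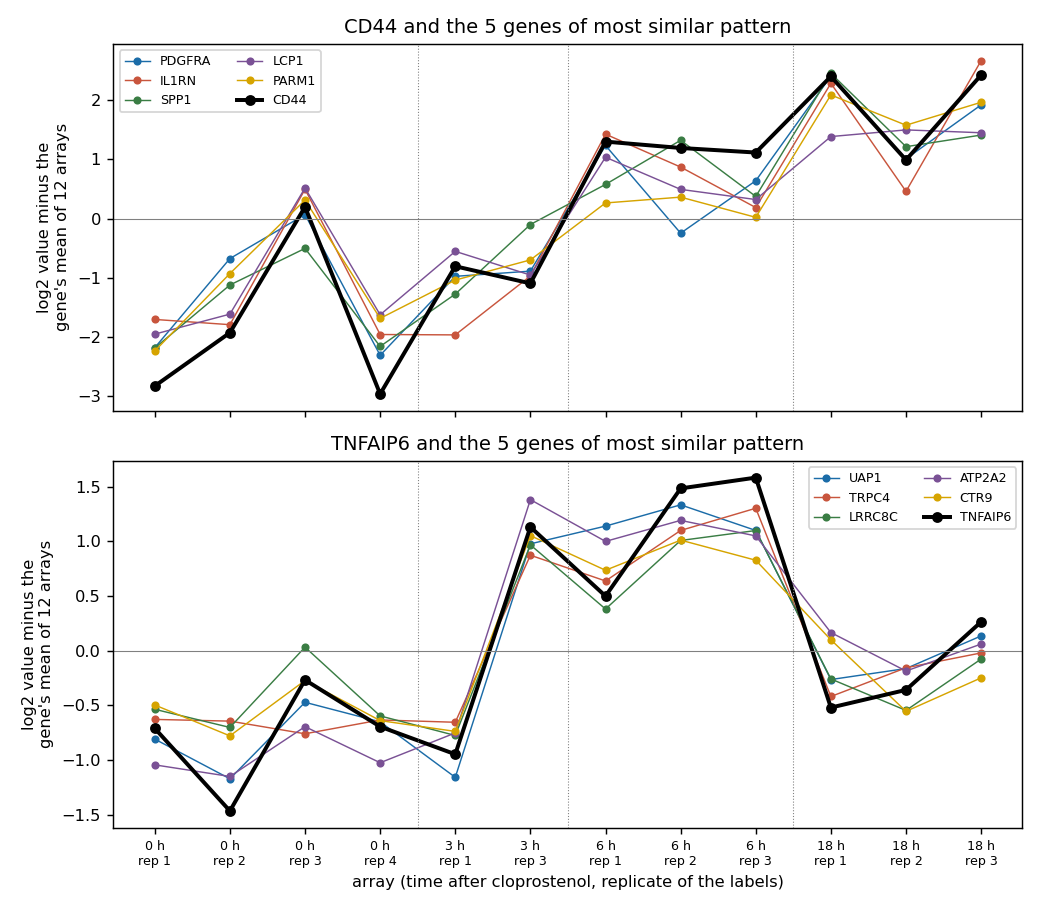
Log2 values of CD44 (upper panel) and TNFAIP6 (lower panel), in black, and of the 5 genes of most similar pattern, in colour, each minus its own mean over the 12 arrays (vertical axis), for every array (horizontal axis, dotted lines part the times). The CD44 group climbed to 18 h with control replicate 3 above the other controls, and the TNFAIP6 group was high at 3 h replicate 3 and at 6 h. The genes were picked on these same arrays, so the shared shape follows from the choice.

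CD44 and LCP1 are both found in leukocytes, and PDGFRA marks fibroblasts, so marker levels stand here beside CD44. The macrophage and leukocyte list (16 of 17 measured) had an array mean of 7.75 to 8.01 in control replicates 1, 2 and 4 and 8.89 in control replicate 3, the control with the highest CD44. It was 8.28 to 8.57 at 3 h, 8.33 to 8.43 at 6 h and 8.59 to 9.24 at 18 h. At 6 h 2 of its 16 genes were called higher (CD14 and LCP1) and at 18 h 4 (CD14, LCP1, CD68 and TYROBP), with 0 lower. Beside these and the next counts stand the shares of all genes called, 6.55% higher and 7.66% lower at 6 h and 7.55% and 8.35% at 18 h. Over the 16 genes the difference at 6 h ran from -0.43 to 2.25 with a median of 0.068, and 9 were above 0. At 18 h it ran from -0.19 to 2.64 with a median of 0.77, and 11 were above 0. LCP1 was also among the genes picked for likeness to CD44. The fibroblast and mural list (10 of 10 measured) ran from 10.53 to 11.23 in controls. At 6 h it ran from 11.12 to 11.52 (1 higher, 0 lower) and at 18 h from 11.52 to 11.70 (3 higher, 0 lower). The endothelial list (10 of 10) ran from 8.60 to 8.90 in controls. At 6 h it ran from 8.94 to 9.25 (3 higher, 0 lower) and at 18 h from 8.92 to 9.06 (4 higher, 0 lower). Its differences at 18 h ran from -0.53 to 1.08, with 7 of 10 above 0. The luteal list ran from 13.23 to 14.05 in controls. At 6 h it ran from 12.9 to 13.4 (0 higher, 1 lower) and at 18 h from 12.28 to 13.00 (0 higher, 5 lower). Control replicate 3 was also the highest control of the endothelial list and the lowest of the luteal list. Control replicate 2 was the highest of the fibroblast and mural list. The part of these markers in the values of CD44, VCAN and HAS2 was not tested.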

How the data were processed

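The values, as deposited by the authors, are log2 RMA signals, 1 for each probe set. RMA subtracts background, brings the arrays to a shared distribution and merges the probes, so it narrows differences of dim probe sets. The RMA version was not given in the sources used here. Of 24128 probe sets, 112 control probe sets were left out. Platform annotation gave 1 gene symbol for 13292 of the other 24016, several for 86 and none for 10638. No sequences were used here.

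Group means of the 4 times were fitted to all 12 arrays in R 4.3.3 with limma 3.58.1 (lmFit, contrasts.fit, eBayes, default settings). Tests were two-sided, with Benjamini-Hochberg adjustment over 24016 probe sets within a comparison and a threshold of 0.05. Counts of genes used, for each of 9155 genes, the probe set with the highest mean. The steps were tested on simulated data. Members and gene lists were chosen with earlier results of these data known. All members were named. From the wider lists, every gene called at 6 h or 18 h against 0 h was named, with full values for up to 3 of each list by lowest adjusted p, and the 5 genes of most similar pattern were taken for CD44, TNFAIP6 and the members called. Alternatives were a repeated quantile normalization, median centring, leaving out the dimmest 40% of probe sets, trend and robust settings, the replicate number as a block, averaging of control replicates 1 and 4, averaging of the probe sets of a gene, and leaving out each array. The number of arrays limits the precision.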

Additional observations from a re-analysis of the deposited data

Results flagged for a closer look

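PTX3 in the controls was marked because 1 of 4 arrays stood apart. Replicate 3 read 11.91 and the others 9.12 to 9.28, and its gap to the nearest other array was 0.943 of the range of the group. The limit used is one that chance passes in about 1 of 20 groups, and 20 probe sets were examined. On the same array the mean of the macrophage and leukocyte markers was also the highest of the controls (8.89). That of the endothelial markers was the highest as well (8.90), and that of the luteal markers the lowest (13.23).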

How the results depend on the processing

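Alternatives that left out 1 array moved the counts of calls as follows. The shares of all genes called in the same fits are not given here, so these counts are no result about the members. Of the 8 members tested, 1 to 5 were called at 6 h and 0 to 3 at 18 h against 0 h (2 at each time with all arrays). Of the wider pathway, 0 to 2 were called at 3 h, 5 to 13 at 6 h (10 with all arrays), 7 to 19 at 18 h (13 with all arrays) and 0 to 1 for 18 h against 6 h (UAP1, without either 3 h array). TNFAIP6 at 3 h ran from -0.16 to 1.92. With control replicates 1 and 4 averaged, 1 member was called at 6 h and 1 at 18 h, and 7 of the wider genes at 18 h. With the probe sets of a gene averaged, 1 member was called at 6 h. The cause was not tested.

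Arrays with the same replicate number had a correlation of deviations over 0.1 in 3 of 15 pairs. The range was -0.26 to 0.19 in these pairs and -0.29 to 0.26 in pairs of other numbers. Deviations from the mean of a small group are tied to each other, so this check cannot settle whether the numbers pair the animals. With the number as a replicate block, 1 member was called at 6 h and 1 at 18 h (HYAL1), with 4 and 6 of the wider genes. The block ended the calls of HYAL2 at 6 h (adjusted p = 0.0748, limma) and HAS2 at 18 h (0.0961), and CD44 at 3 h was 0.34. Under the block HAS1 at 18 h was -0.021 and HAS3 0.0675.

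Other sign changes were of small values that passed no test. With probe sets averaged, VCAN at 3 h was 0.079 and HAS1 for 18 h against 6 h 0.20. With the controls averaged, HAS3 at 18 h was 0.036. Leaving out 1 array gave at 3 h -0.021 to 0.34 for HAS3, -0.038 to 0.61 for HYAL2 and -0.29 to 0.32 for VCAN, and at 6 h -0.027 to 0.11 for HAS3. At 18 h it gave -0.021 to 0.19 for HAS1 and -0.17 to 0.10 for HAS3. For 18 h against 6 h it gave -0.12 to 0.031 for HAS1, -0.20 to 0.063 for HAS3, -0.10 to 0.23 for HYAL1, -0.10 to 0.45 for VCAN and -0.013 to 0.10 for HAPLN1. Where a group of 2 lost 1 array, the other was taken to vary like the rest. HAS1, HAS3 and HAPLN1 fell below the filter on dim probe sets and have no value under it.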
